A study of Homo sapiens with 9 samples.

Results

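The 10 genes described here carry iron into the cell, store it, release it or read its level, and were measured by RNA-seq in MM1S, an established cell line from a human multiple myeloma. They are TFRC, STEAP3, SLC11A2 and SLC25A37 (uptake and intracellular transport), FTH1 and FTL (storage), SLC40A1 (export), IREB2 and ACO1 (regulation), and HMOX1 (release from heme). They were chosen by symbol for their roles, with earlier results of these data known. They are 10 of the 58387 genes in the table of estimated counts. All 10 passed the filter on low counts that left 16600 genes. All libraries were total RNA from MM1S cells grown in RPMI1640 with serum and infected with lentivirus. The tested cells carried an shRNA against PHF19 (PHF19_KD, n = 3) or the knockdown together with PHF19 that the shRNA cannot target (KD_Rescued, n = 2), and the control cells carried an empty vector (shEV, n = 3). One further library was kept apart, because its title calls it a knockdown while its shRNA label names resistant PHF19. The labels give neither the promoter of the constructs nor whether replicates were separate cultures, so a p-value here reflects only how far these libraries vary, and that variation may be technical. The 3 PHF19_KD libraries share a stem in the library names that the library kept apart does not have. What the stem stands for is not given, so a trait of a shared line of cells cannot be told apart from the knockdown.

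Iron bound to transferrin enters cells through transferrin receptor 1 (TFRC), is reduced in endosomes by the STEAP3 ferrireductase and leaves them through the divalent metal transporter SLC11A2. Mitoferrin 1 (SLC25A37) brings iron into mitochondria, ferritin heavy and light chains (FTH1, FTL) form the storage shell, and ferroportin (SLC40A1) is the known cellular iron exporter. Iron regulatory proteins 1 and 2, encoded by ACO1 and IREB2, bind hairpins called iron-responsive elements in mRNAs when iron is scarce. Their binding in the 3′ UTR protects TFRC mRNA from decay, while binding in the 5′ UTR blocks translation of ferritin and ferroportin mRNAs without a direct effect on their amount. Plasma cells, the lineage of myeloma, make large amounts of secreted protein, and TFRC is known to be high in dividing cells. PHF19 is a partner protein of the Polycomb repressive complex that methylates histone H3.

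The hairpins are shown because they are the kind of site that the products of ACO1 and IREB2 bind. GENCODE 29 transcripts (GRCh38) were searched on the transcript strand for CNNNNNCAGTGN followed by 5 bases that pair with the 5 bases after the first C, with G to U pairs allowed. Capitals mark the hexamer loop, and each line has up to 30 bases of the UTR, 5′ to 3′. The TFRC sites lie on the minus strand at chr3:196050979-196051008, chr3:196050575-196050604, chr3:196050510-196050539 and chr3:196050463-196050492, all in the 3′ UTR. The other sites are in 5′ UTRs, at chr11:61967574-61967603 on the minus strand for FTH1, chr19:48965334-48965363 on the plus strand for FTL and chr2:189580661-189580690 on the minus strand for SLC40A1.
TFRC site 1: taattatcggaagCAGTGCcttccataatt
TFRC site 2: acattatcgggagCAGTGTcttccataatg
TFRC site 3: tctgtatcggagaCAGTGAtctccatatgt
TFRC site 4: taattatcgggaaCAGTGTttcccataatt
FTH1: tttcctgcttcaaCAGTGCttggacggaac
FTL: tctcttgcttcaaCAGTGTttggacggaac
SLC40A1: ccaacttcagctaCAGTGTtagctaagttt
Taking the transcript with the longest coding sequence of each gene, 4 of the 10 iron genes had such a site in a UTR, against 121 of 19907 protein-coding genes (0.608%). A 5′ UTR site was present in 23 of those genes (0.116%), and 4 genes (0.0201%) had more than 1 site in the 3′ UTR, among them TFRC with 4. The search found no match in the UTRs of the other 6 iron genes, which says only that this pattern is not in those transcripts. A match is a description of letters and not a measured binding site.

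The 8 tested libraries held 10609800 to 12024900 counts in PHF19_KD, 23644100 to 23751400 in KD_Rescued and 16974700 to 22739700 in shEV. PHF19 was at 26.9 ± 0.860 normalised CPM, counts scaled to library size (SD, n = 3), in PHF19_KD, 219 ± 1.74 CPM (SD, n = 2) in KD_Rescued and 117 ± 11.8 CPM (SD, n = 3) in shEV, in the order that the labels give. The share of counts from mitochondrially encoded genes was 9.60% ± 0.518 in PHF19_KD, 5.08% ± 0.132 in KD_Rescued and 3.16% ± 0.279 in shEV (SD). Replicate 3 of shEV stood apart from its group, with chi-square values per degree of freedom of 6.45 and 7.93 against the other shEV libraries and 1.38 to 2.23 for all other replicate pairs. Both KD_Rescued libraries were run in another lane than all other libraries per the library names, and the rescue cannot be told apart from the lane. The 7 plasma cell markers found in the table were all tested, and their summed level was 3885 to 3955 CPM in PHF19_KD, 3650 to 3745 CPM in KD_Rescued and 3993 to 4070 CPM in shEV. These sums hold members that moved both ways. In PHF19_KD against shEV 3 were called higher and 3 lower, where 34.9% and 34.2% of all tested genes were. In KD_Rescued against PHF19_KD 3 were called higher and 4 lower, where 33.9% and 29.5% of all tested genes were.

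**Figure D1:**
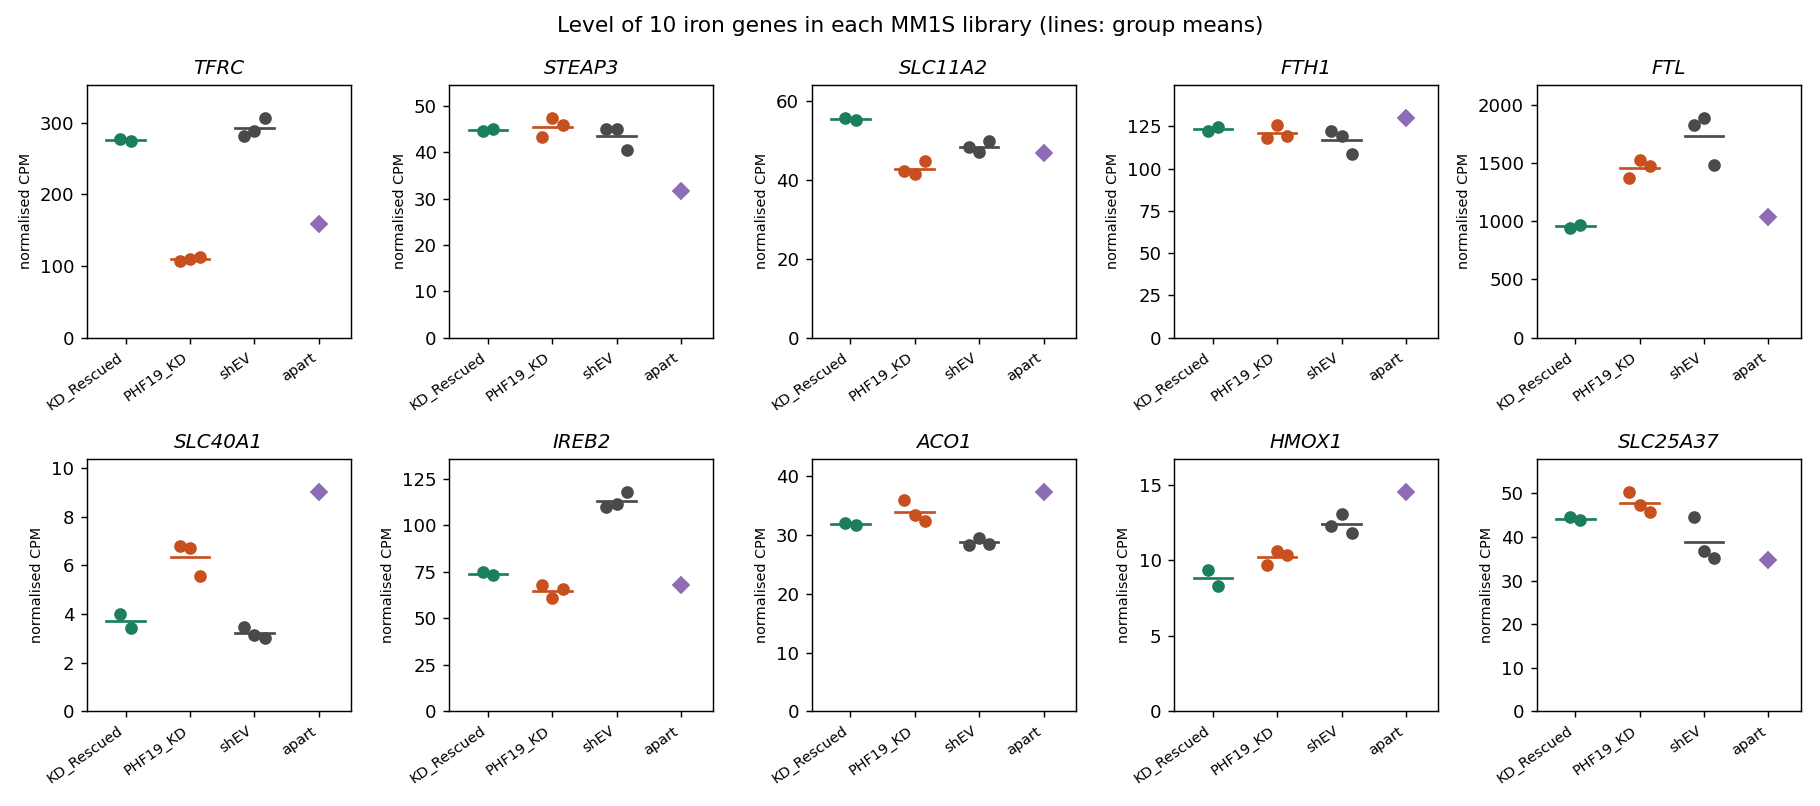
Normalised CPM of the 10 iron genes in each library, with a panel per gene, points for libraries and horizontal lines for group means, in the order KD_Rescued, PHF19_KD, shEV and the library kept apart. TFRC lies between 108 and 112 CPM in PHF19_KD and between 274 and 306 CPM in KD_Rescued and shEV, whereas FTH1 lies between 108 and 126 CPM in all 3 groups.

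In PHF19_KD cells, set against shEV cells to ask what loss of PHF19 does, the message for the iron importer TFRC fell to 37.6% of its control level and that for the exporter SLC40A1 rose 1.97-fold. IREB2, which encodes iron regulatory protein 2, fell to 57.3%, and FTH1 did not pass the test in either direction. With edgeR's quasi-likelihood test and a Benjamini-Hochberg adjusted p below 0.05 as the call, 8 of the 10 genes were called, where 69.1% of all tested genes were. Of these, 3 were higher (34.9% of all tested genes) and 5 were lower (34.2%). The PHF19_KD and shEV values were fully separate for 7 of the 10 genes, against 72.0% of all tested genes. The count of called iron genes was thus near that of all genes. The median log2 fold change was -0.06 over the 10 genes and 0.03 over all tested genes, and the median of its size was 0.26 and 0.58.

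TFRC was at 108, 109 and 112 CPM in PHF19_KD, against 281, 289 and 306 CPM in shEV. The groups lie far apart, and every PHF19_KD library held less TFRC than any shEV library. The log2 fold change was -1.41 ± 0.05 (SE; edgeR adjusted p = 1.04e-10), larger in size than that of 83.0% of tested genes, and stayed between -1.50 and -1.25 in 19 alternative analyses, all of them called. In a bulk measurement, fewer cells with the message and less message per cell cannot be told apart. The erythroid marker list, fixed because red cell precursors carry much TFRC, had a summed level of 15.9 to 17.3 CPM in PHF19_KD and 58.5 to 60.8 CPM in shEV. Of its 12 genes in the table, 3 passed the filter on low counts (HBD, HBB and EPOR), and GYPB, GATA1 and AHSP, which mark the lineage, were at 0 in every library. The part of these genes in the TFRC result was not tested.

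The other genes of the uptake route moved less. STEAP3 was at 43.4, 47.4 and 45.8 CPM in PHF19_KD, against 45.0, 45.1 and 40.4 CPM in shEV, with overlapping groups and no call (log2 fold change 0.06 ± 0.06, edgeR adjusted p = 0.381). It was called higher under upper-quartile scaling (0.22) and with the filter at 5 CPM (0.16). SLC11A2 was at 42.1, 41.5 and 44.7 CPM in PHF19_KD, against 48.3, 46.9 and 49.7 CPM in shEV. All PHF19_KD libraries lay below all shEV libraries, and the gene fell by 0.17 ± 0.05 on the log2 scale (edgeR adjusted p = 0.0136). Its call was lost in 5 of 19 alternatives, with adjusted p up to 0.791 and a log2 fold change of -0.02 under upper-quartile scaling. SLC25A37 was at 50.4, 47.4 and 45.8 CPM in PHF19_KD, against 44.6, 36.7 and 35.2 CPM in shEV. Its groups lie next to each other without overlap, and it rose by a log2 fold change of 0.30 ± 0.08 (edgeR adjusted p = 0.00818), a call lost when the library with disagreeing labels was counted as PHF19_KD (0.22, adjusted p = 0.158).

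The ferritin chains differed from each other. FTH1, the chain with ferroxidase activity, was at 118, 126 and 119 CPM in PHF19_KD, against 122, 119 and 108 CPM in shEV. The groups overlapped, and the log2 fold change was 0.05 ± 0.05 (edgeR adjusted p = 0.409). FTH1 was called higher under upper-quartile scaling (0.21, adjusted p = 0.00261) and with genes under 5 CPM left out (0.15, adjusted p = 0.0188), and its log2 fold change was -0.04 with no filter. FTL was at 1371, 1526 and 1474 CPM in PHF19_KD, against 1828, 1888 and 1484 CPM in shEV. The shEV library that stood apart fell within the PHF19_KD range, so the groups overlapped although FTL was called lower (-0.25 ± 0.08, edgeR adjusted p = 0.0232). Without shEV replicate 3 the log2 fold change was -0.35 (adjusted p = 1.2e-06), and without shEV replicate 1, shEV replicate 2 or PHF19_KD replicate 1 the call was lost, with adjusted p of 0.0800, 0.0639 and 0.0808. Upper-quartile scaling (-0.09, adjusted p = 0.283), the filter at 5 CPM (-0.15, adjusted p = 0.0917) and counting the library kept apart as KD_Rescued (-0.22, adjusted p = 0.112) also ended it.

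Reads of ferritin messages can be shared with processed pseudogenes, and the estimated counts of FTH1 were fractional in all 9 libraries and those of FTL in 7. The 25 FTH1 pseudogenes in the table summed to between 2.73% and 4.37% of the FTH1 count of a library, and the 16 FTL pseudogenes to between 1.54% and 3.09% of the FTL count. Adding them to the parent gene changed no call of a ferritin gene in any comparison. Counts were not whole in 9 libraries for STEAP3, 7 for SLC11A2 and 4 for SLC25A37 either, and were whole in all 9 for TFRC, SLC40A1, IREB2, ACO1 and HMOX1. GENCODE 29 places antisense or opposite-strand genes over STEAP3 (STEAP3-AS1), IREB2 (AC027228.1), FTH1 (BEST1) and TFRC (the pseudogene AC024937.1 and RNU7-18P), and RNU6-87P over SLC11A2. The strand setting is not given in the sources used here, so reads of such overlaps cannot be told apart.

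SLC40A1 was a low message, with 73, 81 and 64 estimated counts in PHF19_KD libraries and 77, 62 and 51 in the deeper shEV libraries. Scaled for depth, it was at 6.79, 6.70 and 5.55 CPM in PHF19_KD, against 3.48, 3.14 and 3.01 CPM in shEV. Each PHF19_KD library lay above each shEV library, and the log2 fold change was 0.98 ± 0.15 (edgeR adjusted p = 8.05e-05), between 0.89 and 1.14 in 19 alternatives that all kept the call. Its size was larger than that of 70.6% of tested genes. HMOX1, which opens the heme ring and frees its iron, was at 9.68, 10.6 and 10.3 CPM in PHF19_KD, against 12.3, 13.0 and 11.8 CPM in shEV. The groups did not overlap, and HMOX1 fell by 0.28 ± 0.09 on the log2 scale (edgeR adjusted p = 0.0198), a call lost in 7 of 19 alternatives, among them DESeq2 (adjusted p = 0.107) and those without PHF19_KD replicate 1 (adjusted p = 0.0690) or shEV replicate 2 (adjusted p = 0.0705). Macrophages are known for high SLC40A1 and HMOX1, and the summed level of 10 monocyte and macrophage markers was 26.5 to 31.3 CPM in PHF19_KD and 20.3 to 23.3 CPM in shEV. CD68 made up most of that sum, at a mean of 26.6 CPM in PHF19_KD and 20.6 CPM in shEV. Only CD68 and ITGAM of the 10 markers passed the filter on low counts, MARCO and S100A8 were at 0 in every library, and the part of the list in these results was not tested.

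The genes of the iron regulatory proteins moved in opposite directions. IREB2 was at 67.7, 61.0 and 65.9 CPM in PHF19_KD, against 110, 112 and 118 CPM in shEV. The groups were well apart, and the log2 fold change of -0.80 ± 0.05 (edgeR adjusted p = 5.30e-08) was called in all 19 alternatives. Its size was larger than that of 62.8% of tested genes. ACO1, whose product is a cytosolic aconitase when it holds an iron-sulfur cluster, was at 36.0, 33.4 and 32.3 CPM in PHF19_KD, against 28.3, 29.5 and 28.5 CPM in shEV. It rose by a log2 fold change of 0.24 ± 0.06 (edgeR adjusted p = 0.00482) with no overlap, and the call was lost only with no filter on low counts (0.15, adjusted p = 0.132).

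**Figure D2:**
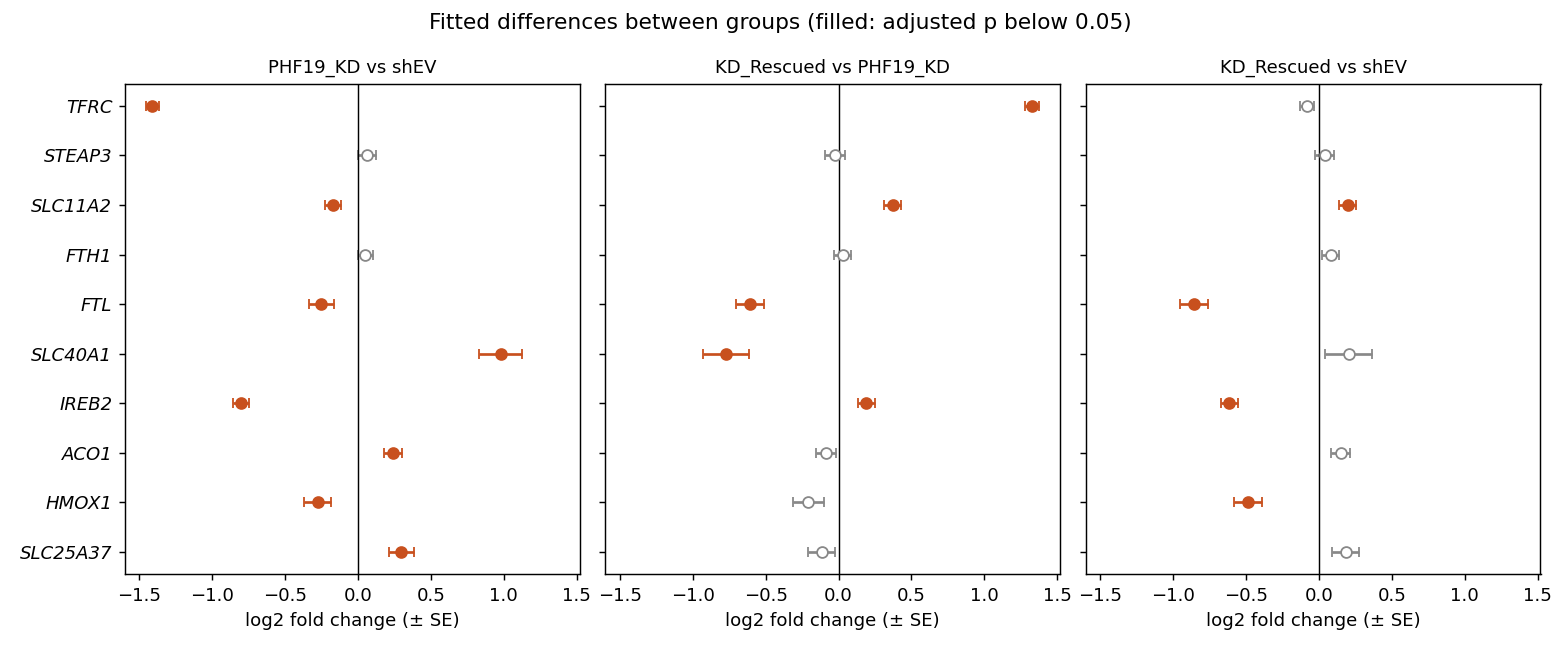
Log2 fold change of each iron gene in the 3 comparisons, with points for estimates, bars for ± 1 SE, and filled points for genes called at an adjusted p below 0.05. TFRC lies at -1.41 for PHF19_KD against shEV, at 1.33 for KD_Rescued against PHF19_KD and near 0 for KD_Rescued against shEV, while FTL lies below 0 in all 3.

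KD_Rescued cells, set against PHF19_KD cells to ask what returning PHF19 does, held 2.51 times as much TFRC message, 58.5% of the SLC40A1 message and 65.6% of the FTL message. Of the 10 genes, 5 were called, where 63.4% of all tested genes were. TFRC, SLC11A2 and IREB2 were higher (3 genes, against 33.9% of all tested genes), and FTL and SLC40A1 were lower (2 genes, against 29.5%). The KD_Rescued and PHF19_KD values were fully separate for 8 of the 10 genes, against 77.2% of all tested genes. The median log2 fold change was -0.06 over the 10 genes and 0.03 over all tested genes, with median sizes of 0.20 and 0.54. This comparison shares the PHF19_KD libraries with the one against shEV, so opposite signs in both are not independent of each other.

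TFRC was at 277 and 274 CPM in KD_Rescued, against 110 ± 2.51 CPM in PHF19_KD (SD, n = 3). The log2 fold change was 1.33 ± 0.05 (edgeR adjusted p = 4.35e-10), between 1.05 and 1.37 over 19 alternatives that were all called. The erythroid marker sum beside it, again mostly HBD, was 68.8 to 70.3 CPM in KD_Rescued and 15.9 to 17.3 CPM in PHF19_KD. SLC11A2 was at 55.6 and 55.0 CPM in KD_Rescued, against 42.8 ± 1.73 CPM in PHF19_KD (SD, n = 3), a rise of 0.37 ± 0.06 on the log2 scale (edgeR adjusted p = 0.000158) that all alternatives kept. IREB2 was at 74.8 and 73.1 CPM in KD_Rescued, against 64.9 ± 3.45 CPM in PHF19_KD (SD, n = 3). Its small rise (0.19 ± 0.06, edgeR adjusted p = 0.0140) lost the call in 8 of 19 alternatives, among them DESeq2 (adjusted p = 0.0991), upper-quartile scaling (0.04, adjusted p = 0.645) and those without KD_Rescued replicate 1 (adjusted p = 0.0869) or PHF19_KD replicate 2 (adjusted p = 0.0706).

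FTL was at 945 and 967 CPM in KD_Rescued, against 1457 ± 78.4 CPM in PHF19_KD (SD, n = 3), with every KD_Rescued library below every PHF19_KD library. The log2 fold change was -0.61 ± 0.10 (edgeR adjusted p = 0.000366), called in all 19 alternatives. SLC40A1 was at 3.99 and 3.42 CPM in KD_Rescued, against 6.35 ± 0.692 CPM in PHF19_KD (SD, n = 3). It fell by 0.77 ± 0.16 on the log2 scale (edgeR adjusted p = 0.00104), and the call was lost when the library with disagreeing labels was counted as KD_Rescued (-0.32, adjusted p = 0.479). The macrophage marker sum beside it, again mostly CD68, was 9.85 to 10.5 CPM in KD_Rescued and 26.5 to 31.3 CPM in PHF19_KD. FTH1 (0.03 ± 0.06), STEAP3 (-0.02 ± 0.07), ACO1 (-0.09 ± 0.07), HMOX1 (-0.21 ± 0.11) and SLC25A37 (-0.11 ± 0.09) were not called, with edgeR adjusted p between 0.104 and 0.771. Upper-quartile scaling called STEAP3, ACO1, HMOX1 and SLC25A37 lower (log2 fold changes of -0.18, -0.24, -0.36 and -0.27). The filter at 5 CPM also called ACO1 (-0.16) and HMOX1 (-0.28) lower, and HMOX1 was called with the library kept apart counted as PHF19_KD (-0.41).

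KD_Rescued and shEV cells, set against each other to ask how far the rescued cells returned to the control, did not differ beyond the threshold in TFRC or SLC40A1, but FTL and IREB2 were lower in KD_Rescued. In this comparison 4 of the 10 genes were called, where 39.8% of all tested genes were. SLC11A2 was higher (1 gene, against 20.7% of all tested genes), and FTL, IREB2 and HMOX1 were lower (3 genes, against 19.1%). The KD_Rescued and shEV values were fully separate for 7 of the 10 genes, against 61.7% of all tested genes. The median log2 fold change was 0.06 over the 10 genes and 0.02 over all tested genes, with median sizes of 0.19 and 0.27.

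TFRC averaged 276 ± 2.11 CPM in KD_Rescued (SD, n = 2) and 292 ± 12.9 CPM in shEV (SD, n = 3). Both KD_Rescued libraries lay just below the lowest shEV library, at a log2 fold change of -0.08 ± 0.05 (edgeR adjusted p = 0.194). SLC40A1 averaged 3.71 ± 0.404 CPM in KD_Rescued and 3.21 ± 0.245 CPM in shEV (SD), with overlapping groups and no call (0.20 ± 0.16, edgeR adjusted p = 0.339). PHF19 itself was 0.91 higher on the log2 scale in KD_Rescued than in shEV, so the rescued cells held more PHF19 message than the control.

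FTL averaged 956 ± 15.3 CPM in KD_Rescued (SD, n = 2) and 1734 ± 218 CPM in shEV (SD, n = 3), which is 55.1% of the shEV level (log2 fold change -0.86 ± 0.10, edgeR adjusted p = 0.000131). IREB2 averaged 74.0 ± 1.21 CPM in KD_Rescued and 113 ± 4.28 CPM in shEV (SD), which is 65.3% of the shEV level (-0.61 ± 0.06, edgeR adjusted p = 9.61e-06). Both calls held in all 19 alternatives, and in both genes every KD_Rescued library lay below every shEV library. HMOX1 averaged 8.83 ± 0.745 CPM in KD_Rescued and 12.4 ± 0.632 CPM in shEV (SD; -0.49 ± 0.10, edgeR adjusted p = 0.00214), a call lost when the library kept apart was counted as KD_Rescued (-0.26, adjusted p = 0.396). SLC11A2 averaged 55.3 ± 0.427 CPM in KD_Rescued and 48.3 ± 1.42 CPM in shEV (SD; 0.20 ± 0.06, edgeR adjusted p = 0.0165). Its call was lost in 8 of 19 alternatives, among them DESeq2 (0.15, adjusted p = 0.180) and those without KD_Rescued replicate 1 (adjusted p = 0.123), KD_Rescued replicate 2 (adjusted p = 0.103) or shEV replicate 2 (adjusted p = 0.0627).

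The remaining genes were not called between KD_Rescued and shEV. FTH1 averaged 123 ± 1.89 CPM in KD_Rescued and 117 ± 7.21 CPM in shEV (SD; log2 fold change 0.08 ± 0.06), and STEAP3 averaged 44.8 ± 0.343 CPM in KD_Rescued and 43.5 ± 2.69 CPM in shEV (SD; 0.04 ± 0.07). ACO1 was at 32.1 and 31.7 CPM in KD_Rescued, between the 33.9 ± 1.88 CPM of PHF19_KD and the 28.8 ± 0.632 CPM of shEV (SD), and was called higher than shEV with the filter at 5 CPM only (0.17, adjusted p = 0.0449). SLC25A37 was at 44.5 and 43.9 CPM in KD_Rescued, within the range of the shEV libraries, and was called higher than shEV only without shEV replicate 1 (0.30, adjusted p = 0.00739). For STEAP3 all 3 groups overlapped. For FTH1 the PHF19_KD values overlapped both other groups, and the KD_Rescued values (122.07 and 124.7 CPM) lay just above the highest shEV value (122.03 CPM).

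The TFRC to FTH1 count ratio sets the uptake message against the storage message within a library and does not depend on scaling between libraries. As it is not corrected for transcript length, only its change between groups was read. It was 2.27 and 2.20 in KD_Rescued, 0.912, 0.870 and 0.943 in PHF19_KD, and 2.31, 2.42 and 2.83 in shEV. The PHF19_KD libraries all lie below those of the other groups, and the highest KD_Rescued library is just under the lowest shEV library. The log2 ratio was 1.46 lower in PHF19_KD than in shEV and 1.30 higher in KD_Rescued than in PHF19_KD. Each had p = 0.1 in an exact 2-sided permutation test, the smallest p these group sizes allow, so neither can pass 0.05. Between KD_Rescued and shEV the difference was -0.17 (exact permutation p = 0.2).

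The FTH1 to FTL count ratio separated all 3 groups. It was 0.129 and 0.129 in KD_Rescued, 0.0860, 0.0823 and 0.0809 in PHF19_KD, and 0.0667, 0.0633 and 0.0731 in shEV. No group overlaps another, with shEV lowest and KD_Rescued highest. The log2 differences were 0.30 for PHF19_KD against shEV, 0.64 for KD_Rescued against PHF19_KD and 0.93 for KD_Rescued against shEV, each with p = 0.1 in the exact permutation test, the smallest it allows. With pseudogene counts added to each ferritin gene the differences were 0.29, 0.61 and 0.90.

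**Figure D3:**
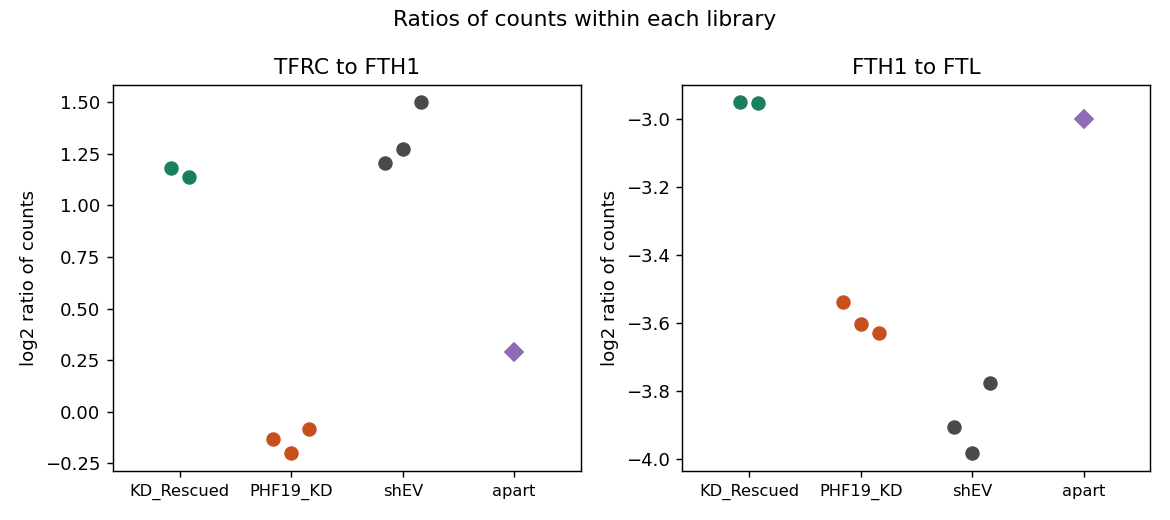
Log2 count ratios of TFRC to FTH1 and of FTH1 to FTL, with 1 point per library, in the order KD_Rescued, PHF19_KD, shEV and the library kept apart (diamond). The mean log2 ratio of TFRC to FTH1 is 1.16 in KD_Rescued, -0.14 in PHF19_KD and 1.33 in shEV, and that of FTH1 to FTL is -2.95 in KD_Rescued, -3.59 in PHF19_KD and -3.89 in shEV.

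The wider iron and heme network was described with 8 lists of 96 symbols, of which 74 passed the filter on low counts. Between PHF19_KD and shEV, 22 were called higher and 31 lower (71.6% called, against 69.1% of all tested genes), and the median log2 fold change was -0.10. Between KD_Rescued and PHF19_KD, 25 were called higher and 28 lower (71.6%, against 63.4%), with a median of 0.03. Between KD_Rescued and shEV, 11 were higher and 18 lower (39.2%, against 39.8%), with a median of -0.09. These last counts were unstable, with 30 lower without shEV replicate 3 and 7 or 6 higher without KD_Rescued replicate 1 or 2, and with 6 higher under DESeq2 and 28 lower under its size factors in edgeR. The shares of called genes were near those of all tested genes in the first and last comparison and above it in the second, and no test of the lists was made.

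Among 8 other regulators, 3 rose and 1 fell in PHF19_KD against shEV (34.9% and 34.2% of all tested genes). FBXL5, an iron-sensing part of a ubiquitin ligase known to mark iron regulatory protein 2 for destruction, was at 99.5, 101 and 97.8 CPM in PHF19_KD, against 47.1, 48.2 and 50.8 CPM in shEV. It was thus high in each PHF19_KD library (log2 fold change 1.03 ± 0.05, edgeR adjusted p = 3.11e-09). In KD_Rescued it was at 39.9 and 40.9 CPM, a log2 fold change of -1.30 ± 0.06 against PHF19_KD (edgeR adjusted p = 1.77e-09). ZFP36, an mRNA-decay factor that binds AU-rich 3′ UTRs, rose by a log2 fold change of 0.65 ± 0.05 in PHF19_KD. EPAS1, which encodes hypoxia-inducible factor 2 alpha, was 1.01 ± 0.10 higher on the log2 scale in PHF19_KD than in shEV (edgeR adjusted p = 1.59e-06). In KD_Rescued it was 1.98 ± 0.12 lower than in PHF19_KD and 0.97 ± 0.12 lower than in shEV.

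Of 8 other uptake and reduction genes, 3 rose and 3 fell in PHF19_KD against shEV (34.9% and 34.2% of all tested genes). SLC39A8, a zinc transporter that also carries ferrous iron, was at 76.8, 81.9 and 80.1 CPM in PHF19_KD, against 152, 158 and 164 CPM in shEV. CYBRD1, a ferric reductase of the plasma membrane, was at 9.68, 10.3 and 9.28 CPM in PHF19_KD, against 4.11, 4.55 and 4.60 CPM in shEV. In both genes the groups lay apart, and both calls had the opposite sign in KD_Rescued against PHF19_KD (0.89 ± 0.05 for SLC39A8 and -0.92 ± 0.12 for CYBRD1). Transferrin (TF) and the second transferrin receptor (TFR2) did not pass the filter on low counts, with at most 0.125 and 0.208 CPM in any library.

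Of 7 other storage and cytosolic handling genes, 2 rose and 2 fell in PHF19_KD against shEV (34.9% and 34.2% of all tested genes). PCBP2 and PCBP1, RNA-binding proteins that also act as iron chaperones for ferritin, went opposite ways. The log2 fold change was 1.13 ± 0.04 for PCBP2 and -0.73 ± 0.07 for PCBP1, although the counts of both were not whole in several libraries. NCOA4, the receptor that takes ferritin to lysosomes, was at 243, 234 and 233 CPM in PHF19_KD, against 233, 238 and 275 CPM in shEV, and was not called (-0.07 ± 0.06, edgeR adjusted p = 0.312). It was at 167 and 170 CPM in KD_Rescued, 0.56 ± 0.07 lower than shEV on the log2 scale (edgeR adjusted p = 5.47e-05). Of the other genes of export and systemic control only HEPH and BMP6 were tested. HEPH, a copper ferroxidase, had 6, 8 and 12 counts in PHF19_KD, 5 and 1 in KD_Rescued, and 2, 1 and 2 in shEV.

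In heme synthesis, 4 of 12 tested genes rose and 6 fell in PHF19_KD against shEV, where 34.9% of all tested genes rose and 34.2% fell. PPOX (1.37 ± 0.08) and ALAD (0.71 ± 0.06) rose, and ABCB10 (-0.75 ± 0.05), a mitochondrial transporter known to bind mitoferrin 1 in mouse cells, fell. All 3 had the opposite sign in KD_Rescued against PHF19_KD and were called there. PPOX was still 0.91 ± 0.08 higher on the log2 scale in KD_Rescued than in shEV (edgeR adjusted p = 8.54e-06). ALAD and ABCB10 were not called between KD_Rescued and shEV. In heme breakdown and transport, 3 of 8 rose and 4 fell (34.9% and 34.2% of all tested genes), with SLC48A1, which carries heme out of endosomes, at 51.3, 49.6 and 52.6 CPM in PHF19_KD, against 26.2, 23.8 and 22.0 CPM in shEV. LRP1, a receptor that takes up heme bound to hemopexin, was at 32.3, 37.2 and 39.8 CPM in PHF19_KD, against 1.31, 1.42 and 1.18 CPM in shEV (log2 fold change 4.79 ± 0.14, edgeR adjusted p = 3.68e-11).

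Mitochondrial iron import and iron-sulfur assembly held the longest list, with 5 of 20 tested genes higher and 11 lower in PHF19_KD against shEV, where 34.9% of all tested genes were higher and 34.2% lower. HSPA9, the chaperone of the assembly scaffold, was at 356, 356 and 350 CPM in PHF19_KD, against 577, 589 and 611 CPM in shEV, and BOLA3, a cluster delivery factor, fell by 1.49 ± 0.13 on the log2 scale. The scaffold gene ISCU itself rose (0.52 ± 0.04). In KD_Rescued against PHF19_KD, 9 of the 20 were higher and 4 lower (33.9% and 29.5% of all tested genes), and against shEV 5 were higher and 3 lower (20.7% and 19.1%). Of 9 cytosolic iron-sulfur assembly genes, 1 rose and 4 fell in PHF19_KD against shEV (34.9% and 34.2% of all tested genes), and NDOR1, an electron donor of that pathway, was higher in KD_Rescued than in shEV (1.07 ± 0.11).

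**Figure D4:**
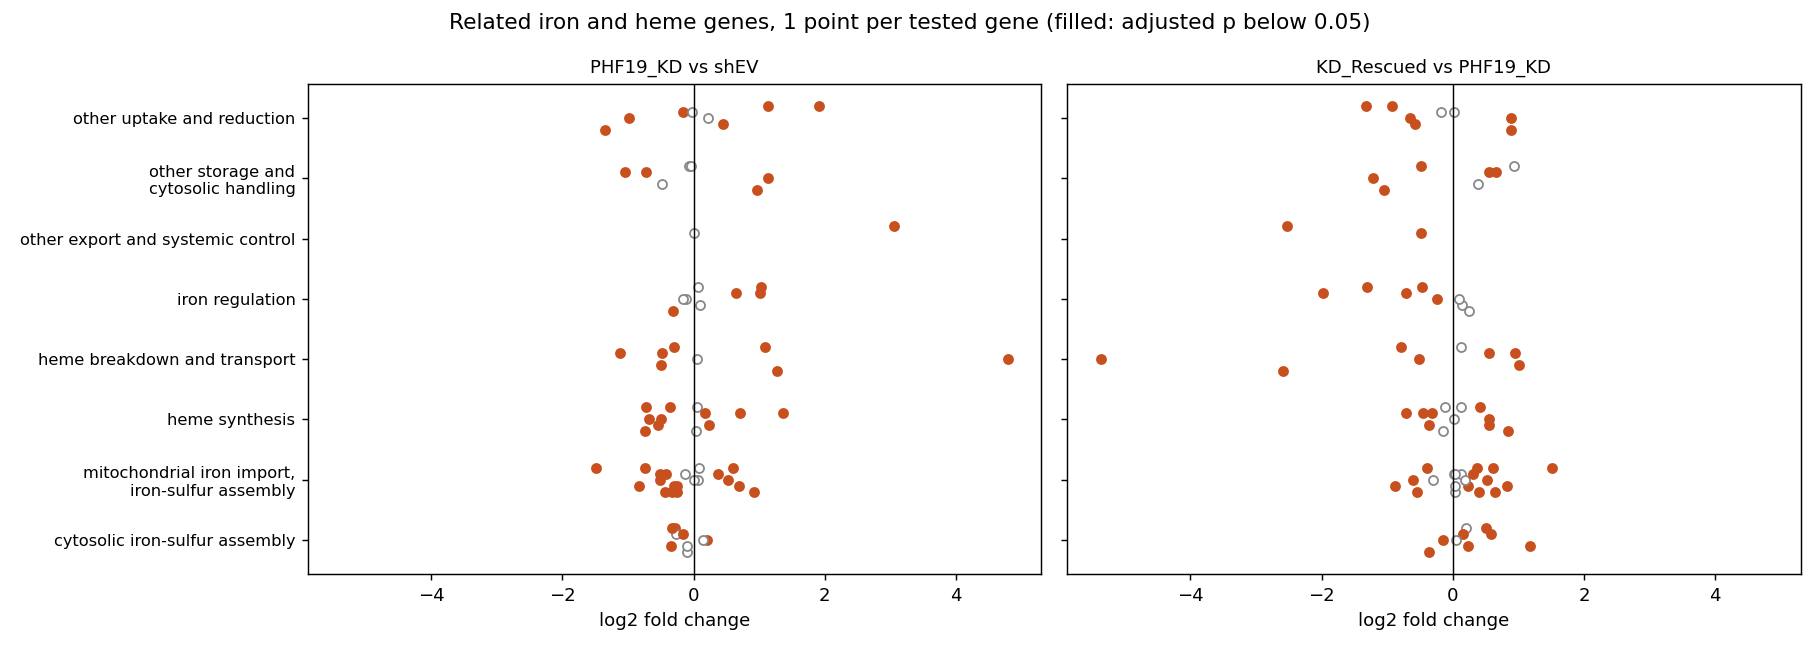
Log2 fold change of each tested gene in the 8 lists of related iron and heme genes, for PHF19_KD against shEV (left) and KD_Rescued against PHF19_KD (right), with 1 point per gene, filled where the adjusted p is below 0.05. Height within a list only separates the points. In PHF19_KD against shEV the mitochondrial list has 5 genes called higher and 11 called lower of 20 (34.9% and 34.2% of all tested genes). The point farthest to the right there is LRP1, at 4.79.

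Likeness of profile was measured as the root mean square difference of log2 CPM, centred per gene, over the 8 tested libraries, among 9805 genes of mean log2 CPM of at least 3 that were not iron genes of the set. IPO5, a nuclear import receptor, was closest to TFRC, at a difference of 0.02, where the median over all candidates was 0.63. It was at 191, 191 and 192 CPM in PHF19_KD, 473 and 479 CPM in KD_Rescued, and 492, 506 and 524 CPM in shEV, the same order as TFRC. Neighbours were picked for small differences over these same 8 libraries, so a shared order and a difference below the median follow from the selection. RNASEH2B and TIMM21 came next, both at 0.04. FTH1 was closest to VPS4A (0.02), MYO18A (0.03) and C1orf106 (0.03), with a median over candidates of 0.27, and SLC40A1 to SNHG19 (0.08), CHURC1 (0.09) and NOL4L (0.10), with a median of 0.54. The counts of the neighbours of FTH1, and of IPO5, CHURC1 and NOL4L, were not whole in some or all libraries.

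Promoter windows from RefSeq (GRCh38.p14), which hold the bases around each start site, matched 7 of the 10 genes, namely TFRC, FTL, SLC40A1, SLC11A2, IREB2, ACO1 and STEAP3. They were searched on both strands for the E-box CACGTG and the antioxidant response pattern TGACNNNGC, whose matches can share bases. Of 35116 windows, 7.26% held the E-box and 13.3% held the antioxidant pattern, and 0 of the 7 iron genes held either within this window. The shares are of windows and not of genes, and at such shares 0 of 7 genes says little. Sites farther from the start were not searched. FTH1, HMOX1 and SLC25A37 had no entry.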

How the data were processed

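RNA-seq libraries of MM1S cells were analysed from a single table of estimated counts per gene deposited by the authors, not scaled between libraries. The submitters' processing notes name CASAVA, RSEM and hg19 without roles, and the deposited table is named after salmon, so the program behind the counts is not settled. Neither annotation nor strand setting is given. Column totals were 10164100 to 23751400, which limits precision for low genes such as SLC40A1.

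Estimated counts were rounded and tested with edgeR 4.0.16 (R 4.3.3): filterByExpr by group, TMM scaling, robust quasi-likelihood fit of the 8 libraries with undisputed labels, and Benjamini-Hochberg adjustment over 16600 genes, with calls below 0.05. SE was computed as log2 fold change over the root of the F statistic. CPM are scaled by the total of tested genes and the TMM factor, and SD is between libraries. Count ratios were compared with exact permutation tests. The test was checked on simulated counts. DESeq2 1.42.0, limma-voom (limma 3.58.1), other scalings, filters, the replicate number as a block and left-out libraries were alternatives.

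The 10 genes and the related lists were chosen with earlier results of these data known. Named were PHF19, the 10 genes, for each list and comparison a part of the called genes with the lowest adjusted p (2 rises, 2 falls), and the 3 nearest profiles of TFRC, FTH1 and SLC40A1. NCOA4 in PHF19_KD against shEV, TF and TFR2, and the counts of HEPH, were added for their roles after their values were seen. EPAS1 in PHF19_KD against shEV and the means of CD68 and HBD were also added with their values known.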

Additional observations from a re-analysis of the deposited data

Results flagged for a closer look

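The library whose title and shRNA label disagree was in no comparison as reported, only in alternatives, and in it 4 iron genes lay above the highest shEV library. FTH1 was at 130 CPM there, against at most 122 CPM in shEV. SLC40A1 was at 9.04 CPM, against at most 3.48 CPM in shEV, and also above the highest PHF19_KD library (6.79 CPM). ACO1 was at 37.4 CPM, against at most 29.5 CPM in shEV. HMOX1 was at 14.5 CPM, against at most 13.0 CPM in shEV, whereas HMOX1 was lower in both labelled groups than in shEV. In the same library TFRC was at 159 CPM and PHF19 at 63.3 CPM, both between the PHF19_KD and shEV libraries, and the FTH1 to FTL ratio was 0.125, near the 0.129 of KD_Rescued. It is 1 library, so these values have no replicate.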

How the results depend on the processing

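Of the 8, 5 and 4 iron genes called in PHF19_KD against shEV, KD_Rescued against PHF19_KD and KD_Rescued against shEV, the counts changed by over 1.5 times in few settings. With the library kept apart placed in PHF19_KD, 5 were called in the first, and with it in KD_Rescued, 5, 3 and 2 were called in the 3 comparisons. Upper-quartile scaling called 8 in the second, and it moved the all-gene median log2 fold change to 0.19 in PHF19_KD against shEV and -0.12 in KD_Rescued against PHF19_KD. It and the filter at 5 CPM turned the split of PHF19_KD against shEV to 5 higher and 2 lower, from 3 and 5, and KD_Rescued against PHF19_KD to 2 higher with 6 and 4 lower. TFRC, SLC40A1 and IREB2 in PHF19_KD against shEV, and FTL and TFRC in KD_Rescued against PHF19_KD, kept their calls in all 19 alternatives. Replicate numbers did not pair the libraries (correlations of deviations from -0.01 to 0.03), and with the replicate block 8, 5 and 4 genes were again called.

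Signs turned for FTH1 and STEAP3 only, and neither was called at the turned sign; the cause was not tested. FTH1 in KD_Rescued against PHF19_KD was -0.0121 with DESeq2, -0.0120 with its size factors, -0.125 with upper-quartile scaling, -0.0449 with the filter at 5 CPM, -0.0585 and -0.00601 with the library kept apart as PHF19_KD and as KD_Rescued, and -0.00287 with the replicate block. With no filter, FTH1 was -0.0404 and STEAP3 was -0.0277 in PHF19_KD against shEV, and STEAP3 was 0.0164 and -0.0113 in KD_Rescued against PHF19_KD and against shEV. With the library kept apart as PHF19_KD, STEAP3 was -0.0304, 0.0257 and -0.00465 in the 3 comparisons, and with it as KD_Rescued -0.133 against shEV. DESeq2 and its size factors gave -0.00681 and -0.00706 for STEAP3 in KD_Rescued against shEV. Leaving out 1 library at a time gave -0.0587 to 0.00202 for STEAP3 in KD_Rescued against PHF19_KD and -0.0107 to 0.0649 against shEV.

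Counts over all genes moved too. In KD_Rescued against shEV, where 3436 were called higher and 3163 lower, 2231 were higher with DESeq2 and 1862 with the library kept apart as PHF19_KD. With it as KD_Rescued, 1262 were higher and 1202 lower, and in KD_Rescued against PHF19_KD 3338 and 2869, against 5622 and 4904. Without KD_Rescued replicate 1, 2232 were higher and 2021 lower than in shEV, and without replicate 2, 2168 and 1880. Of the 74 related genes, the library kept apart as KD_Rescued left 13 higher and 14 lower against PHF19_KD, from 25 and 28, and 2 higher and 5 lower against shEV, from 11 and 18, and as PHF19_KD it left 6 higher against shEV.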
